A study of Homo sapiens with 6 samples.

Results

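The first 440 nucleotides of human 28S rRNA, the large RNA of the 60S ribosomal subunit, were examined for what happens at ordinary U when the RNA is treated with CMC. The members are the rows 1 to 440 of the deposited 28S tables, chosen by position alone, with at least 100 reads crossing the position in both libraries of a pair. Of the 440 positions, 439 passed in all 3 reverse transcription conditions, out of 6912 of the 6939 positions of 18S and 28S rRNA together, and position 1 had no crossing reads. The stretch holds 65 U, 148 G, 107 A and 120 C. U made up 14.8% of it, against 16.6% of both rRNAs. A list of human rRNA pseudouridines written from general knowledge has no entry in the stretch. Of its 132 entries, 23 do not lie on a U of the deposited sequences, so the list is a limited check.

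The RNA came from HEK293T/17, a human embryonic kidney cell line, and was total RNA without its short RNAs, fragmented and then either treated with CMC or mock-treated. Each kind of RNA was copied by HIV reverse transcriptase with magnesium (HIV RT), by SuperScript III with manganese (SIII Mn) or by SuperScript III with magnesium (SIII Mg). This gives 6 libraries of 1 cell line, 1 per combination: HIV RT with CMC and its mock, SIII Mn with CMC and its mock, and SIII Mg with CMC and its mock. There is no replicate of any library, so each difference below compares the reads of 2 libraries and carries no estimate of the spread between repeats of the treatment.

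CMC is a carbodiimide that attaches to the base-pairing edge of U, G and pseudouridine, the isomer of uridine found at many sites of rRNA. An adduct can stop reverse transcriptase or make it insert another base, and mapping of pseudouridine relies on adducts at pseudouridine outlasting those at U and G under alkali. No alkaline step is described in the labels used here. The 5′ end of 28S rRNA pairs with the 3′ part of 5.8S rRNA in the ribosome, and the RNA that follows is conserved. Reverse transcriptase moves along the RNA from its 3′ side, so the nucleotide 3′ of a U is copied just before it.

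The study asked how sequence context sets mutation and stop rates after CMC. Both were followed at each position. Mutation share means the percentage of reads crossing a position that differ from the reference base. Stop share means the percentage of reads stopping at a row, out of those stopping and crossing. Positions are counted from 1 on the deposited 28S sequence, to which no genome build applies, and letters are printed as deposited, with T for U.

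The sequences around the U with the largest rises are shown first, with the base that follows the U given for each list. Each has 7 nucleotides on either side and the named U in capitals. The U called for stops in all 3 conditions, by the rule given below, with the largest mean rise are the following.
U242: aggccggTagcggcc
U43: ttaagcaTattagtc
U157: tgtggcgTacggaag
U327: ctccatcTaaggcta
U37: ctgaattTaagcata
U150: cgggacaTgtggcgt
Of these 6 U, 5 are followed by A and 1 by G.

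The U with the largest differences in mutation share are the following, beside U150 above.
U187: ccgctcgTggggggc
U316: cgggtggTaaactcc
U78: ccaggatTccctcag
U35: cgctgaaTttaagca
U96: cggcgagTgaacagg
U204: aagtcctTctgatcg
U440: aaacgggTggggtcc
Among these 7 U, a G follows at U187, U96 and U440, an A at U316, a U at U35, and a C at U78 and U204. These U were picked in each condition separately, unlike the U listed for stops, so the lists are not compared directly.

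The 40-nucleotide stretch with the most U called for stops in all 3 conditions spans positions 7 to 46 and is printed with those U in capitals.
positions 7 to 46: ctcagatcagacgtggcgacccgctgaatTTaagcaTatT
It holds 10 U, of which U36, U37, U43 and U46 were called in every condition.

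Depth was high over most of the stretch. The median number of reads crossing a position ranged over the libraries between 97869 and 231999. The lowest at any tested position was between 3573 and 47424, and the lowest at any U between 14454 and 67520. The 95% Wilson interval of a share at a U was at most ± 0.597 percentage points wide in any library, and at most ± 1.13 points at the other bases. Reads were amplified without molecular identifiers in the description, so they are not independent molecules and the intervals cover counting error only.

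A rise or fall was called where a two-sided Fisher's exact test between the CMC and the mock library had a Benjamini-Hochberg adjusted p below 0.05 over all positions of 18S and 28S rRNA in that condition, and the shares differed by at least 5 percentage points. In the stretch every difference of at least 5 points passed the test, so the call acts as a bar on size.

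Stops rose at a large part of the U of this stretch. With HIV RT the median stop share of the 65 U was 7.77% with CMC and 2.23% in mock, and the median of the differences was 4.92 points (quartiles 2.04 and 10.1). SIII Mg gave medians of 8.48% with CMC and 1.78% in mock, and a median difference of 6.01 points (quartiles 3.06 and 11.6). For SIII Mn the medians were 4.23% with CMC and 2.86% in mock, with a median difference of 1.83 points (quartiles 0.261 and 5.44). CMC gave the higher share at 64 of 65 U with HIV RT, 55 with SIII Mn and 64 with SIII Mg.

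The call counts follow the same order. With HIV RT 29 of the 65 U were called as higher (44.6%), with SIII Mn 18 (27.7%) and with SIII Mg 36 (55.4%), and none was called as lower. Over all tested positions of both rRNAs, 10.1% were called as higher with HIV RT, 8.38% with SIII Mn and 9.22% with SIII Mg, and 3.66%, 1.98% and 1.84% as lower in the same order. Just inside and outside the 5-point bar lay U209 (5.06) and U370 (4.97) with HIV RT, U291 (5.13) and U325 (4.98) with SIII Mn, and U206 (5.26) and U321 (4.75) with SIII Mg.

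The medians of the other bases of the stretch were near 0. The median difference in stop share at G was 0.093 points with HIV RT, -0.010 with SIII Mn and 0.178 with SIII Mg. At A it was -0.121, -0.142 and -0.417 points in the same order, and at C -0.017, -0.141 and -0.253 points. Of the 374 A, C and G together, 15 were called as higher with HIV RT, 13 with SIII Mn and 3 with SIII Mg, while 21, 2 and 0 were called as lower. G, which CMC can also modify, was called as higher at 7, 6 and 2 of 148 positions.

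**Figure D1:**
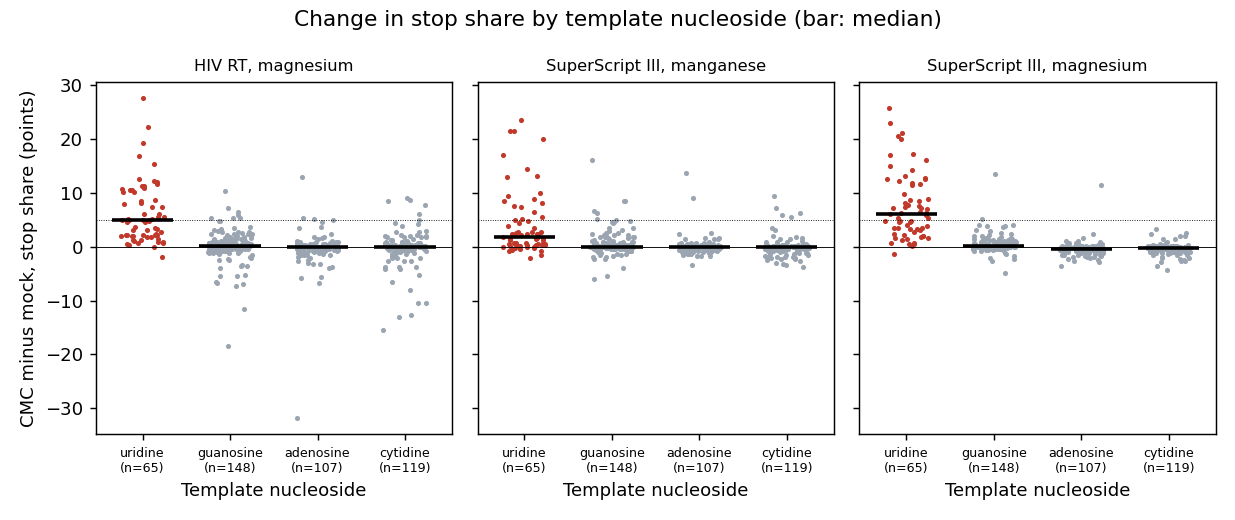
Difference in stop share, CMC minus mock in percentage points (vertical axis), at each position of the stretch by its nucleoside and reverse transcription condition. Each point is 1 position, the black bar is the median and the dotted line is the 5-point bar. The uridine median lies above 0 in all 3 panels, and that of 1.83 with SuperScript III and manganese is the lowest of the 3.

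Compared with U elsewhere in the rRNAs, the U of the stretch had larger median differences. The 978 tested U outside it that are not on the pseudouridine list had median stop differences of 2.81 points with HIV RT, 1.14 with SIII Mn and 3.38 with SIII Mg, and 32.5%, 22.3% and 38.2% of them were called as higher. The 109 listed pseudouridines on a U had medians of 13.4, 7.71 and 16.8 points. These lists differ in sequence context, and no test of the difference between them was made. The nucleotide 3′ of U is A at 24.6% of the U in the stretch, against 14.8% of the U outside it. When the medians of the 4 contexts outside are weighted as in the stretch, they come to 4.14, 2.71 and 5.15 points, against 5.07, 2.86 and 6.17 points for the U of the stretch computed in the same way.

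The neighbour 3′ of the U went with the size of the stop rise in each condition. U followed by A (16 positions) had median differences of 10.8 points with HIV RT, 5.54 with SIII Mn and 11.7 with SIII Mg. U followed by U (13 positions) had 6.11, 3.86 and 7.04 points. U followed by G (18 positions) had 2.21, 2.26 and 3.47 points, and U followed by C (18 positions) had 2.10, 0.352 and 3.33 points. All 16 U before A were called as higher with SIII Mg, 13 with HIV RT and 8 with SIII Mn. None of the 18 U before C was called with SIII Mn. Of the unlisted U before A outside the stretch, 77.2% were called with SIII Mg, 73.1% with HIV RT and 60% with SIII Mn. Of those before C, 5.04% were called with SIII Mn, so few calls in that context were not particular to the stretch.

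The order A, U, G, C of these medians was also seen at the U outside the stretch. There the medians with SIII Mg were 10.7 points before A, 5.51 before U, 3.24 before G and 1.92 before C. With HIV RT they were 8.33, 5.10, 2.37 and 1.49 points, and with SIII Mn 7.53, 2.59, 1.03 and 0.181 points. In the stretch itself the medians before G and before C were close with HIV RT and with SIII Mg. The base 5′ of the U gave no such order: with SIII Mg the medians were 7.38 points after A, 7.17 after U, 4.06 after G and 6.02 after C.

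**Figure D2:**
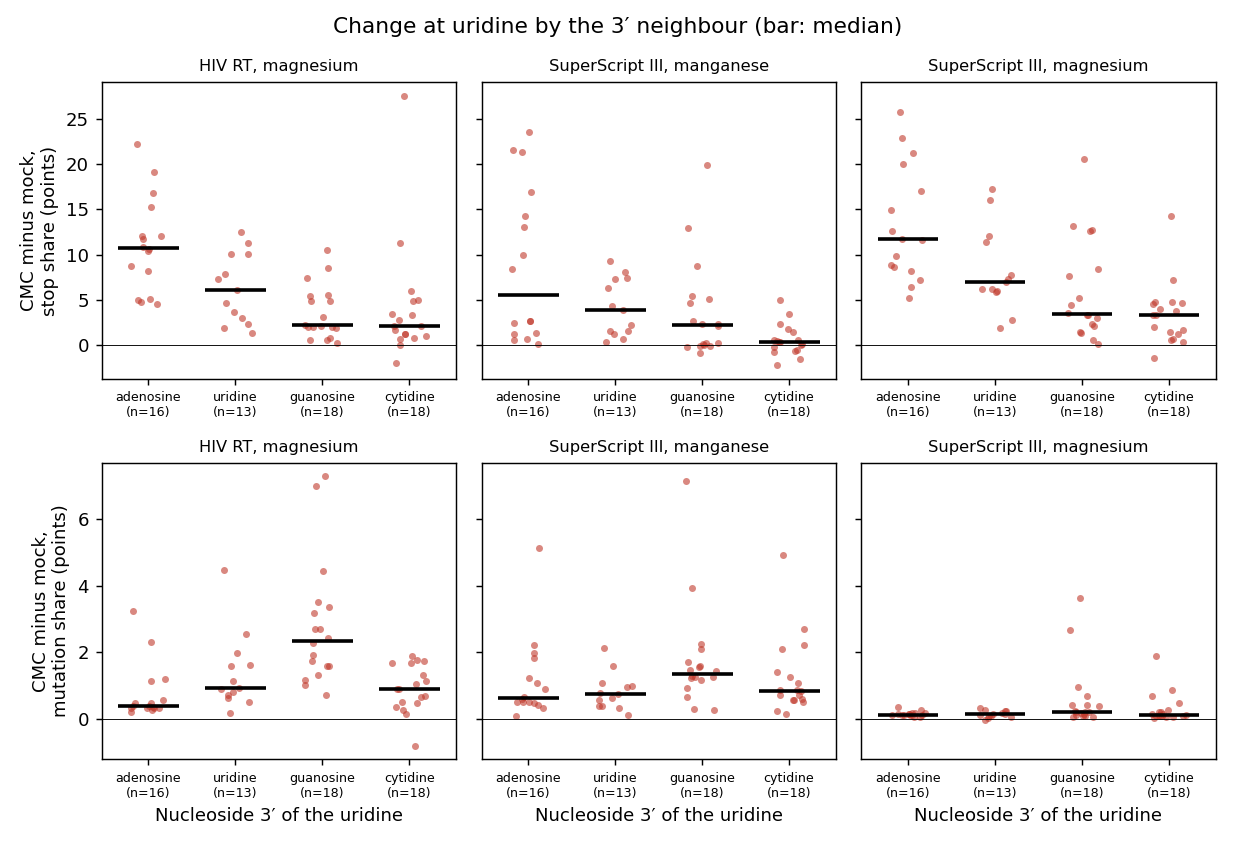
Differences in stop share (top) and mutation share (bottom), CMC minus mock in percentage points, at the 65 uridines by the nucleoside on their 3′ side and the reverse transcription condition. Points are positions and black bars are medians: the stop medians are highest before adenosine (10.8, 5.54 and 11.7), and the mutation medians before guanosine (2.35, 1.35 and 0.195).

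Named positions show how far single U depart from these medians. U242, followed by A, had the largest mean rise over the 3 conditions among the U called in all of them. Its stop share was 24.2% with CMC and 1.95% in mock with HIV RT, 22.0% and 0.584% with SIII Mn, and 26.5% and 3.57% with SIII Mg. The 3 CMC libraries lay close together here, and the rises were 22.2, 21.4 and 22.9 points.

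U43 stopped 23.0% of reads with CMC and 6.24% in mock with HIV RT, 37.0% and 13.5% with SIII Mn, and 27.4% and 12.6% with SIII Mg. Its mock shares were well above the median U of the stretch in all 3 conditions. U157 had 15.8% with CMC and 3.74% in mock with HIV RT, 30.4% and 8.91% with SIII Mn, and 29.5% and 8.32% with SIII Mg. U327 had 24.8% with CMC and 5.69% in mock with HIV RT, 17.9% and 4.91% with SIII Mn, and 29.0% and 9.03% with SIII Mg. At all 3 U each CMC share was above each mock share.

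U37 is the last U of a run of 3 and is followed by A. It had 14.3% with CMC and 2.23% in mock with HIV RT, 17.4% and 3.11% with SIII Mn, and 31.0% and 5.36% with SIII Mg. Its rise of 25.7 points with SIII Mg was the largest of any U of the stretch in that condition.

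In all, 14 of the 65 U (21.5%) were called as higher in all 3 conditions, against 16.6% of the unlisted U outside the stretch and 4.34% of all tested positions. They were U36, U37, U43, U46, U150, U157, U203, U242, U286, U287, U297, U327, U333 and U404, of which 7 are followed by A, 4 by U, 3 by G and none by C. Their rises ranged between 5.50 and 22.2 points with HIV RT, 5.44 and 23.5 with SIII Mn, and 7.35 and 25.7 with SIII Mg. Another 11 U were called with HIV RT and SIII Mg but not with SIII Mn, 4 with both SuperScript III conditions only, 4 with HIV RT alone and 7 with SIII Mg alone. No U was called with SIII Mn alone, and 25 U were called in none. The shares of all positions with each of these patterns were not computed, so the counts are not read as traits of these U.

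**Figure D3:**
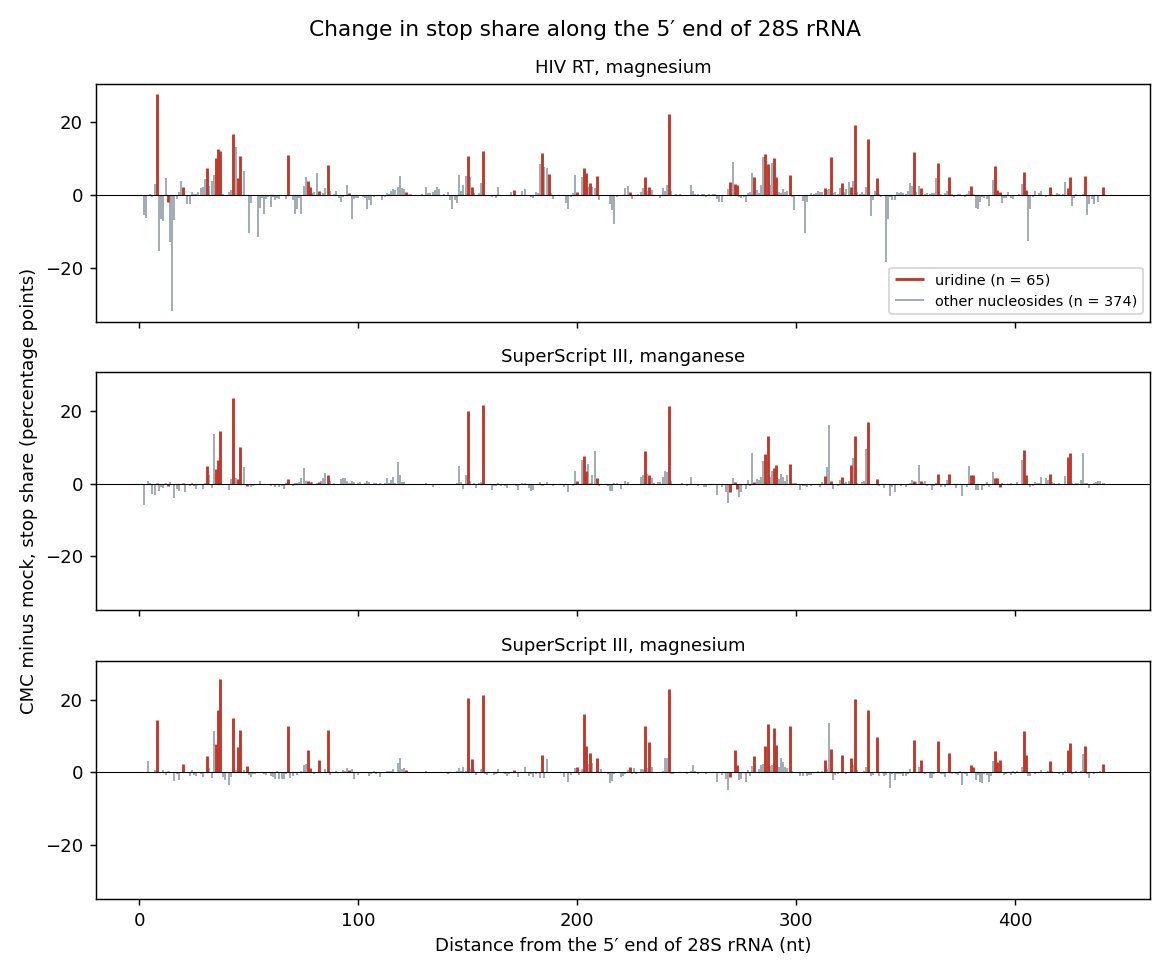
Difference in stop share, CMC minus mock in percentage points (vertical axis), against the distance from the 5′ end of 28S rRNA in nucleotides, 1 panel per reverse transcription condition. Red lines are the 65 uridines and grey lines the 374 other positions. The rises of at least 5 points are mostly red in every panel, and the deep grey falls, down to -31.8 points, are in the HIV RT panel.

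Rises were found along the whole stretch. In successive blocks of 110 positions the median difference at U with SIII Mg was 7.04, 4.28, 6.92 and 5.56 points. With HIV RT the 4 medians were 7.39, 5.30, 4.93 and 3.48 points, and with SIII Mn 1.26, 0.412, 3.34 and 2.32 points. The blocks hold 17, 12, 18 and 18 U, and the first contains the low-coverage 5′ end.

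Some U showed almost no stop response. U13, in the low-coverage 5′ end, had 8.80% with CMC and 10.8% in mock with HIV RT, 15.3% and 16.0% with SIII Mn, and 7.69% and 7.26% with SIII Mg. U49 had 1.22% with CMC and 1.21% in mock with HIV RT, 1.36% and 1.97% with SIII Mn, and 3.90% and 2.15% with SIII Mg. Both are followed by C. A flat response was not confined to that context. U96, followed by G and named below for its mutations, had stop differences of 0.583 points with HIV RT, 0.0474 with SIII Mn and 0.553 with SIII Mg. U187, also followed by G, was among the lowest with SIII Mg (0.170 points) but rose by 5.54 points with HIV RT.

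U270 and U273, followed by C like U13 and U49, had lower stop shares with CMC in the SIII Mn pair. U270 had 1.76% with CMC and 3.95% in mock with SIII Mn, 2.32% and 3.66% with SIII Mg, and 7.96% and 4.49% with HIV RT. U273 had 1.35% with CMC and 2.89% in mock with SIII Mn, 3.80% and 1.78% with SIII Mg, and 3.52% and 0.758% with HIV RT. None of these falls reached the 5-point bar.

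U8, the U nearest the 5′ end, differed most between HIV RT and SIII Mn and between SIII Mn and SIII Mg. Its stop share with HIV RT was 45.9% with CMC (95% Wilson interval 45.3 to 46.5) and 18.4% in mock (17.9 to 18.9). With SIII Mg it was 15.3% with CMC and 1.07% in mock, and with SIII Mn 5.85% and 5.66%. A rise of 27.5 points with HIV RT thus stood beside a difference of 0.199 points with SIII Mn. The position is crossed by 14454 reads in the HIV RT library with CMC, the lowest number at any U.
U8: cgcgaccTcagatca

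The differences between conditions were tested at each U as a difference of the 2 CMC minus mock differences, with a Wald z test adjusted over all positions, measures and pairs of conditions, and called at an adjusted p below 0.05 and at least 5 points. HIV RT minus SIII Mg was called for stops at 12 U, 3 with the larger rise in HIV RT and 9 in SIII Mg, with a median of -1.42 points over the 65 U. SIII Mn minus SIII Mg was called at 21 U, 1 larger with manganese and 20 with magnesium, with a median of -2.48 points. HIV RT minus SIII Mn was called at 18 U, 14 larger in HIV RT and 4 in SIII Mn, with a median of 1.50 points. Over all tested positions, the shares called were 10.1%, 6.93% and 10.8% in the same order. Since enzyme and metal were each changed once, in single libraries, library and condition cannot be told apart.

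The U with the larger rise with manganese was U43, where SIII Mn exceeded SIII Mg by 8.60 points (95% Wald interval 8.25 to 8.94). In the other direction, U68, followed by A, had 2.45% with CMC and 1.08% in mock with SIII Mn, 15.8% and 3.14% with SIII Mg, and 14.0% and 3.09% with HIV RT. U86, also followed by A, had 3.58% and 1.13% with SIII Mn, 12.6% and 0.863% with SIII Mg, and 11.5% and 3.28% with HIV RT, again CMC before mock. These 2 U were picked for mention after their values were seen.

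Across the 65 U, the stop differences of 2 conditions ranked alike to different degrees. Spearman's rho was 0.813 between HIV RT and SIII Mg, 0.761 between SIII Mn and SIII Mg, and 0.575 between HIV RT and SIII Mn. The pairs share no library, but all share the RNA and its sequence contexts, and neighbouring positions share reads.

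Differences in mutation share at U were smaller than those in stop share in the median. With HIV RT the median mutation share was 1.76% with CMC and 0.621% in mock, and the median difference was 1.13 points (quartiles 0.477 and 1.90). SIII Mn gave 1.11% with CMC and 0.163% in mock, a median difference of 0.930 points (quartiles 0.547 and 1.57). SIII Mg gave 0.222% with CMC and 0.070% in mock, a median difference of 0.147 points (quartiles 0.091 and 0.236). The CMC library had the higher value at 64, 65 and 64 of the 65 U.

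Few of these differences reached 5 points. With HIV RT 2 U were called as higher, U187 and U150, with SIII Mn 2, U150 and U316, and with SIII Mg 0, while all positions of both rRNAs gave 1.05%, 1.29% and 0.159% called. No U was called as lower, against 0.101%, 0.332% and 0.0868% of all positions, and none was called in all 3 conditions, against 0.0723% of all positions. Of the SIII Mg differences at U the largest was 3.63 points, at U150. The unlisted U outside the stretch had median mutation differences of 0.849, 0.690 and 0.124 points, and the listed pseudouridines 3.68, 3.48 and 0.445 points, each in the order HIV RT, SIII Mn, SIII Mg.

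The median mutation differences of A, C and G were each below that of U in the same condition. The median difference at G was 0.250 points with HIV RT, 0.299 with SIII Mn and 0.0497 with SIII Mg, with CMC above mock in 119, 122 and 132 of 148 G. At A the medians were -0.115, 0.072 and 0.012 points, and at C -0.088, 0.0587 and 0.0481 points. CMC was below mock at 77, 31 and 41 of the A and at 87, 43 and 18 of the C, in the same order. With SIII Mn and SIII Mg most A and C were thus above mock too, and the SIII Mg medians of G and C were close.

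In mutation share the 3′ neighbour ran in another order than in stop share. U before G had a median difference of 2.35 points with HIV RT, 1.35 with SIII Mn and 0.195 with SIII Mg. U before A had 0.384, 0.631 and 0.124 points, U before U 0.929, 0.746 and 0.133 points, and U before C 0.887, 0.842 and 0.122 points. Of the 10 U with the largest mutation rise, 8 are followed by G with HIV RT, 4 with SIII Mn and 6 with SIII Mg. Of the 10 with the largest stop rise, 7, 7 and 6 are followed by A. The same context was highest among the U outside the stretch with HIV RT (1.51 points before G) and SIII Mn (0.954), but not with SIII Mg, where U before U had 0.156 points and U before G 0.117.

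Large stop differences and large mutation differences did not go together across the U. Spearman's rho between the 2 differences over the 65 U was -0.238 with HIV RT, -0.273 with SIII Mn and -0.177 with SIII Mg. Both measures of a U come from the same reads and share crossing reads in the denominator. The 10 U with the largest mutation rise had median stop rises of 2.56, 0.530 and 1.30 points, below the medians of all 65 U in each condition.

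**Figure D4:**
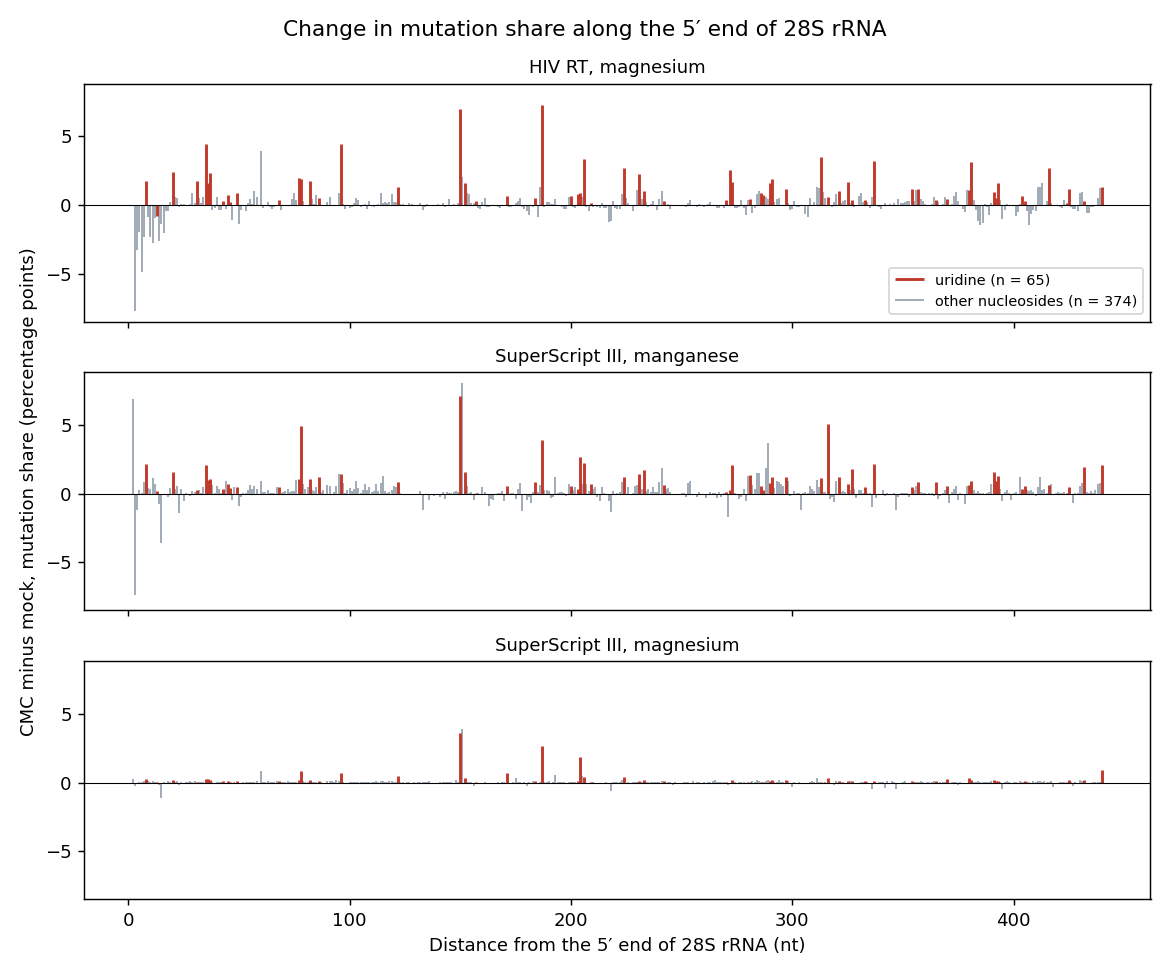
Difference in mutation share, CMC minus mock in percentage points (vertical axis), against the distance from the 5′ end of 28S rRNA in nucleotides, 1 panel per reverse transcription condition, with uridines in red and other positions in grey. The tallest red lines are at 150 and 187 with HIV RT (6.99 and 7.28 points), and the grey line beside 150 with SuperScript III is the G at 151 (8.07 points with manganese).

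U150 was high in both measures. Its mutation share was 7.56% with CMC and 0.567% in mock with HIV RT, 7.25% and 0.113% with SIII Mn, and 3.73% and 0.100% with SIII Mg. Its stop share was 13.0% and 2.44% with HIV RT, 27.7% and 7.74% with SIII Mn, and 26.4% and 5.87% with SIII Mg, in the same order. Among its mismatched reads with CMC, C was read in 81.2% with HIV RT, 95.6% with SIII Mn and 97.0% with SIII Mg, against 39.1%, 51.3% and 53.5% in mock.

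The G next to it, G151, was called for mutation with SIII Mn. Its mutation share was 2.85% with CMC and 0.823% in mock with HIV RT, 8.44% and 0.375% with SIII Mn, and 4.02% and 0.099% with SIII Mg. With CMC the base read was A in 59.1%, 89.4% and 96.2% of its mismatched reads, in the order HIV RT, SIII Mn, SIII Mg, and in mock in 32.2%, 18.6% and 28.6%. Its stop share with SIII Mn was only 1.77% with CMC and 0.972% in mock. G151 had the largest mutation rise of any A, C or G of the stretch with both SuperScript III conditions. Whether the same reads carry both changes cannot be read from counts per position.

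U187 stands before a run of G and was read differently by the 2 enzymes. Its mutation share was 8.54% with CMC and 1.26% in mock with HIV RT, 5.83% and 1.89% with SIII Mn, and 3.99% and 1.33% with SIII Mg. With HIV RT, C made up 72.1% of the mismatched reads with CMC and 19.5% in mock. With SuperScript III, G made up 91.3% with CMC and 92.0% in mock with manganese, and 97.2% and 96.9% with magnesium, so there the base read was the same with and without CMC. Its stop share rose by 5.54 points with HIV RT and differed by -0.224 and 0.170 points with SIII Mn and SIII Mg.

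U316 had a mutation share of 9.47% with CMC and 4.34% in mock with SIII Mn, against 1.73% and 1.38% with SIII Mg and 0.861% and 0.296% with HIV RT. Nearly all of its SIII Mn mismatches were reads of A, 98.4% with CMC and 99.1% in mock. It is followed by a run of A in the sequence above, and its mutation share without CMC was already high with manganese.

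The remaining named U were below the 5-point bar in mutation in every condition. U78 had 5.95% with CMC and 1.02% in mock with SIII Mn, 2.54% and 0.647% with HIV RT, and 1.10% and 0.230% with SIII Mg. U35, the first of a run of 3 U, had 5.77% with CMC and 1.29% in mock with HIV RT, 2.21% and 0.091% with SIII Mn, and 0.334% and 0.071% with SIII Mg. U96 had 5.08% and 0.647% with HIV RT, 1.63% and 0.174% with SIII Mn, and 0.832% and 0.138% with SIII Mg.

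U204 and U440 had 2 of the 4 largest mutation differences with SIII Mg. U204 had 1.95% with CMC and 0.062% in mock with SIII Mg, 2.86% and 0.162% with SIII Mn, and 1.40% and 0.525% with HIV RT. U440, the last position, had 1.04% and 0.087% with SIII Mg, 2.33% and 0.225% with SIII Mn, and 1.64% and 0.335% with HIV RT.

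No U was called for a difference between conditions in its mutation change, whether between HIV RT and SIII Mg, SIII Mn and SIII Mg, or HIV RT and SIII Mn. The shares called over all positions were 1.04%, 1.13% and 1.18%. The median differences between conditions were 0.834, 0.767 and 0.204 points, and HIV RT exceeded SIII Mg at 62 of 65 U and SIII Mn exceeded SIII Mg at 64.

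The base read at U differed between CMC and mock libraries. Pooled over the 65 U, C made up 58.8% of mismatched reads with CMC and 42.6% in mock with HIV RT, 54.8% and 39.1% with SIII Mg, and 46.7% and 42.3% with SIII Mn. C was the leading mismatch at 56 U with CMC and 49 in mock with HIV RT, at 47 and 46 with SIII Mg, and at 39 and 51 with SIII Mn. With manganese, U led by A numbered 16 with CMC and 9 in mock, and U led by G 10 and 5. U with larger mismatch counts weigh more in the pooled shares.

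The row on which a stop is counted was followed around 22 U that have no other U within 3 nucleotides. The median stop difference on the row of the U itself was 4.95 points with HIV RT, 1.30 with SIII Mn and 5.01 with SIII Mg. On the row 1 nucleotide 5′ it was 2.17, 0.390 and 0.442 points, and on the row 1 nucleotide 3′ 0.013, 0.042 and -0.176 points. Around these 22 U the stop rise thus lay on the U and, with HIV RT most of all, on the next row that the enzyme would copy. The wider set of 52 U with an A, C or G on the 5′ side had medians of 4.93, 1.44 and 5.93 points on the U. On the 5′ row its medians were 2.78, 1.38 and 0.656 points, so there SIII Mn had nearly equal medians on both rows.

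**Figure D5:**
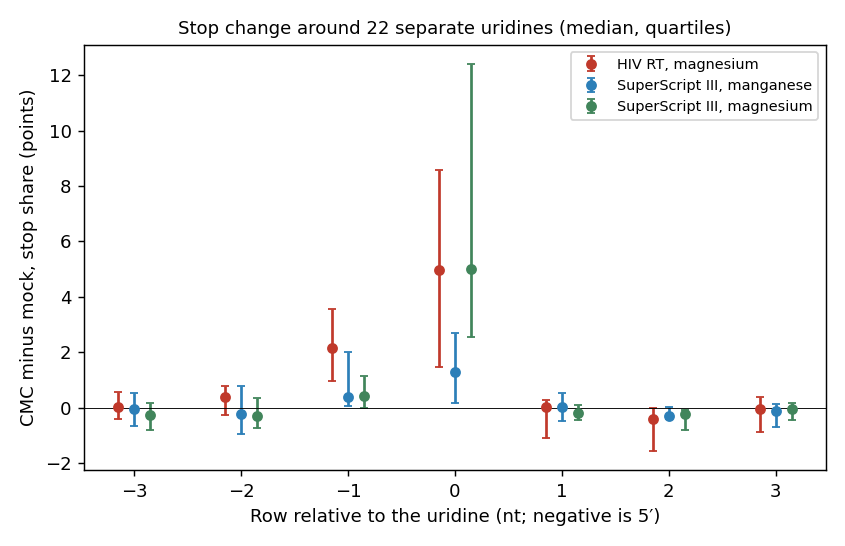
Median difference in stop share, CMC minus mock in percentage points (vertical axis), on the rows from 3 nucleotides 5′ to 3 nucleotides 3′ of 22 uridines with no other uridine in that range. Bars are quartiles over the 22 uridines and colours are the reverse transcription conditions. Points rise above 0 at the uridine. On the row 1 nucleotide 5′ of it they are 2.17 points for HIV RT, 0.390 for SIII Mn and 0.442 for SIII Mg.

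Most called stop rises at A, C and G were next to a U in this way. Of the 15 such positions with HIV RT 12 lie directly 5′ of a U, of the 13 with SIII Mn 12, and of the 3 with SIII Mg all 3, while 13.9% of the A, C and G of the stretch have that place. The 277 A, C and G next to no U had median stop differences of -0.176, -0.185 and -0.169 points.

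At some U the row with the larger difference depended on the enzyme. The stop difference of U316 was 10.4 points with HIV RT, 0.600 with SIII Mn and 6.49 with SIII Mg, while that of G315 before it was 1.61, 16.1 and 13.6 points. G315 had 23.9% with CMC and 7.87% in mock with SIII Mn, and 24.3% and 10.8% with SIII Mg. U35 had stop differences of 10.1, 3.86 and 7.72 points, and A34 before it 5.31, 13.6 and 11.5 points. At these 2 sites the larger difference lay on the U with HIV RT and on the base 5′ of it with both SuperScript III conditions.

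The 2 A, C or G with the largest stop rises with HIV RT also stand before a U. A44, between U43 and U45, had 22.5% with CMC and 9.52% in mock with HIV RT, but 2.33% and 0.950% with SIII Mn and 2.49% and 1.86% with SIII Mg. G285, before the U at 286 and 287, had 13.8% and 3.43% with HIV RT, 8.73% and 2.45% with SIII Mn, and 3.24% and 0.876% with SIII Mg. The difference of A44 exceeded that of U45 with HIV RT (13.0 against 4.65 points) and barely with SIII Mn (1.38 against 1.26), and was below it with SIII Mg (0.632 against 7.04). The difference of G285 was below that of U286 in all 3 conditions, 10.4 against 11.2, 6.28 against 8.06 and 2.36 against 7.35 points. Among the 52 U with an A, C or G on the 5′ side, the 5′ row had the larger difference at 17 with HIV RT, 24 with SIII Mn and 5 with SIII Mg. That larger difference reached 5 points at only 7, 7 and 2 of them, in the same order.

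In runs of U the row with the largest rise also varied. The stretch has 11 runs of 2 or 3 U with 24 U in all. The largest rise was on the 3′ U, the first that the enzyme meets, in 2 runs with HIV RT, 6 with SIII Mn and 4 with SIII Mg. U286 and U287 are given as an example chosen after their values were seen. At U286 the stop share was 13.7% with CMC and 2.42% in mock with HIV RT, 9.21% and 1.15% with SIII Mn, and 8.48% and 1.12% with SIII Mg. At U287 it was 10.8% and 2.26%, 17.1% and 4.06%, and 16.8% and 3.63% in the same order of conditions.

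Falls in stop share were almost all in the HIV RT pair. It had 21 called falls, none at a U, among the 439 positions, where 3.66% of all tested positions of both rRNAs were called as lower. Of the 21, 8 lie in the first 30 positions and 7 directly 3′ of a U, a place that 13.6% of the A, C and G of the stretch have. A15 had a stop share of 7.64% with CMC and 39.5% in mock with HIV RT, but 1.01% and 1.31% with SIII Mn and 0.347% and 0.262% with SIII Mg. G341 had 7.23% and 25.7% with HIV RT, against 0.355% and 0.432% with SIII Mn and 1.78% and 2.42% with SIII Mg. In both, the high value is the HIV RT mock library.
A15: tcagatcAgacgtgg
G341: aaataccGgcacgag

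The 2 called falls with SIII Mn were G2 and G269. G2 had 15.3% with CMC and 21.3% in mock with SIII Mn, and G269 had 9.38% and 14.8%. With SIII Mg no fall was called, and the largest were at G269, with 6.58% with CMC and 11.4% in mock, and C343, with 5.92% and 10.2%. G269 stands directly 5′ of U270, whose stop shares were also lower with CMC in both SuperScript III conditions.

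The mock libraries themselves held mismatches in this stretch. The mock mutation share was over 2% in at least 1 condition at 60 positions, 14 of them in the first 30, and 3 of the 60 were U. C3 was highest, with 22.3% with CMC and 29.7% in mock with SIII Mn, 7.99% and 15.7% with HIV RT, and 1.22% and 1.48% with SIII Mg. C6 had 9.07% with CMC and 14.0% in mock with HIV RT and at most 2.84% in any other library.

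G60 was the only position with over 2% in the SIII Mg mock library. Its mutation share was 21.9% with CMC and 17.9% in mock with HIV RT, 21.1% and 20.1% with SIII Mn, and 23.9% and 23.1% with SIII Mg. The 6 libraries lay between 17.9% and 23.9%, while C3 and C6 differed more between conditions. The source of these mismatches was not tested.
G60: cggaggaGaagaaac

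The only called falls in mutation share were at C3, in the HIV RT and SIII Mn pairs. A15 had 3.75% with CMC and 7.37% in mock with SIII Mn, 0.633% and 1.78% with SIII Mg, and 0.548% and 1.92% with HIV RT. A218 had 0.536% and 1.17% with SIII Mg. G2 was higher, with 11.3% with CMC and 4.33% in mock with SIII Mn, and G2 and G151 were the called rises in mutation share at A, C or G.

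A398 and A400, known as ribose-methylated in human 28S rRNA, served as modified positions that are no U. The stop share of A398 was 1.83% with CMC and 2.77% in mock with HIV RT, 0.573% and 0.527% with SIII Mn, and 2.13% and 2.97% with SIII Mg. A400 had 3.00% and 3.21% with HIV RT, 2.49% and 3.02% with SIII Mn, and 1.64% and 2.11% with SIII Mg. Their differences were all under 1 point in size, and the flanking G397, G399 and G401 had stop differences between -1.21 and 0.759 points. Mutation shares at both A were below 1% in all 6 libraries.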

How the data were processed

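Per the labels, the libraries were made from HEK293T/17 RNA over 200 nucleotides and sequenced in a single lane. The submitters' processing notes name Trimmomatic 0.32 and Bowtie 1.0. The settings of both and the origin of the rRNA sequences are not given in the sources used. The authors deposited 12 tables with, per the file headers, crossing-read counts in all and by base, the number of stopping reads, and the mismatch rate and stop frequency as fraction values. Both fractions were recomputed from the counts and matched to rounding.

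Shares were compared by Fisher's exact test with Benjamini-Hochberg adjustment (Python 3.11.15, SciPy 1.17.1, statsmodels 0.14.6). The calling rule was tried on simulated counts for SIII Mg stops and HIV RT mutations only. Those counts held no spread between libraries, so the trial does not bear on the spread between repeats. Each group has 1 library, and the tests compare libraries. The members, lists and rules were chosen with earlier results of these data known. Named positions were those with the largest rises and falls by measure and condition, both ribose-methylated A, and the highest mock mutation shares; exceptions are marked. The pseudouridine list has 132 entries, of which 109 lie on a U and were used. It served to set these aside, to check the stretch for entries and as a set for comparison. The other 23 entries do not lie on a U, so the U taken as unlisted may still hold pseudouridines.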

Additional observations from a re-analysis of the deposited data

Results flagged for a closer look

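The change in stop share differed between reverse transcription conditions by at least 5 points at 12 U for HIV RT against SIII Mg, at 21 U for SIII Mn against SIII Mg and at 18 U for HIV RT against SIII Mn, by a test of the difference itself between single libraries. U37 differed most between HIV RT and SIII Mg, by -13.6 points (95% Wald interval -14.0 to -13.3). U8 differed most in the other pairs, by -14.1 points for SIII Mn minus SIII Mg (-14.5 to -13.6) and by 27.3 points for HIV RT minus SIII Mn (26.5 to 28.2). The intervals cover counting error only.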

How the results depend on the processing

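No paired analysis was possible because each group holds 1 library, and no library could be left out. Values are given in the order HIV RT, SIII Mn, SIII Mg unless named. The counts of U called for stops (29, 18, 36) became 49 and 32 with HIV RT and SIII Mn at a bar of 2 points. At 10 points they became 17, 8 and 18. They became 46, 29 and 55 where the bar in points was replaced by a CMC share of at least 2 times the mock share. The counts for mutations (2, 2, 0) became 14, 11 and 2 at 2 points, and 0 with HIV RT and SIII Mn at 10 points. With 2 times the mock share in place of the bar in points they became 43, 60 and 52. Without positions of over 2% mock mutation, 1 U was left with SIII Mn. Counting a call on the A, C or G row 5′ of a U as well gave 35, 25 and 36 U for stops, an alternative chosen after seeing the data.

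The median stop difference at U was 6.19, 4.34 and 7.92 points with reads pooled over positions, 3.08, 1.58 and 1.09 on the row 1 nucleotide 5′, and 0.393, 0.329 and 0.105 on the row 3′. With SIII Mn it was 2.21 without the first 30 positions and without positions of over 2% mock mutation. Less the median at C it was 1.97 with SIII Mn and 6.27 with SIII Mg. The median mutation difference was 1.46, 1.25 and 0.263 with pooled reads, and less the median at C 1.21 with HIV RT and 0.099 with SIII Mg. Over all U of 28S outside the stretch, the stop medians were 3.11, 1.35 and 3.92 and the mutation medians 0.970, 0.816 and 0.158. No alternative turned a direction. Of the values, 40, the counts 35, 25 and 36 included, stayed within 1.5 times (counts) or counting error (medians). The others did not: 24 medians moved beyond counting error, and 11 counts were larger and 6 smaller beyond 1.5 times. Counting error is small at these depths, and the spread between repeats is unknown.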
